A study of Mus musculus with 180 samples.

Results

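Lapatinib, an ATP-competitive inhibitor of the receptor tyrosine kinases EGFR and ERBB2, was compared with its solvent DMSO in LPS-treated macrophages. The comparison used every sample labelled Lapatinib, 3 in number, and the 6 samples labelled DMSO, out of 180 samples in the series. The cells were wild-type mouse bone marrow-derived macrophages (BMDMs), which received the inhibitor or DMSO for 1 h and then LPS at 10 ng/ml for 2 h, so that both groups carried the LPS stimulus and no unstimulated cells entered the comparison. Polyadenylated RNA was sequenced. The series holds 58 clinical kinase inhibitors (CKIs) with 3 independent biological replicates each, and the DMSO samples come as 2 sets of 3. Lapatinib was given at a concentration taken from a kinobeads assay, which measures displacement of the intended target, here EGFR, from immobilized kinase ligands. Of 45070 genes in the table, the 12714 with a mean normalized read count of at least 10 over all samples were tested.

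LPS binds TLR4 on macrophages and signals through MyD88 to NF-κB and the MAP kinases, which switch on cytokine and chemokine genes, and through TRIF to IRF3, which together with NF-κB switches on Ifnb1. The secreted interferon beta then acts on its receptor and, through JAK kinases, raises a broad set of interferon-stimulated genes. The ERBB receptors, the intended targets of Lapatinib, bind EGF-like ligands and signal through GRB2, SHC1 and SOS1 to RAS and ERK and through PI3K to AKT, and they are best known from epithelial cells.

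The promoters of Ifnb1 and of its downstream gene Isg15 are shown as RefSeq gives them for GRCm38.p6. They are the 250 bases before the annotated start, 5′ to 3′ on the strand of the gene. Capitals mark matches, on either strand, to the interferon regulatory factor element AANNGAAA, which 21.3% of all 32851 promoter windows of this length held. The Ifnb1 window (chr4:88522795-88523044, minus strand) held 3 matches, starting between 159 and 126 bases before the annotated start. That of Isg15 (chr4:156200819-156201068, minus strand) held 4, some of which overlap each other, starting between 128 and 64 bases before it. A match describes the letters of the window and not binding.
Ifnb1: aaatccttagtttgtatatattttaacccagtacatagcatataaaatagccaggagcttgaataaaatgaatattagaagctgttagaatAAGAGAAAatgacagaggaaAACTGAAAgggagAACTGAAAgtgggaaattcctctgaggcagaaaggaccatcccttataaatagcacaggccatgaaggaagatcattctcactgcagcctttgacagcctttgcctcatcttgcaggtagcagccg
Isg15: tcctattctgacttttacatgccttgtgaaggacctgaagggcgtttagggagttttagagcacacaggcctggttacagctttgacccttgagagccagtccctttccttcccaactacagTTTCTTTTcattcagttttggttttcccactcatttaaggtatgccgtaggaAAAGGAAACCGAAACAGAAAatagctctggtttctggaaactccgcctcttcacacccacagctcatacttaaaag

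In the macrophages treated with Lapatinib, Ifnb1, the chemokine genes Ccl7, Ccl3 and Ccl12, the interleukin-1 genes and part of the interferon-stimulated genes were higher than in DMSO, and so were most cytosolic ribosomal protein genes and the mitochondrially encoded transcripts. Ogfr, Dhx16, Zfp282, Map3k11 and Irf8 were among the genes that were lower. With the mitochondrial share and the replicate block in the fit, Ccl3, Ccl12, Il1a, Il1b, Irf8 and all mitochondrially encoded genes lost their call. Of the 81 tested ribosomal protein genes, 14 were then still called, all higher, beside 1.34% of all genes called higher. The share of interferon-stimulated genes called, 23.5%, was near the 23.3% of all genes called in either direction. All interferon-stimulated genes called were higher, as 18.1% of all genes were. Their count fell to 1 with the mitochondrial share and the replicate block in the fit, beside 1.34% of all genes higher. Without Lapatinib replicate 1 their count fell to 0, beside 489 of all 12714 genes higher. Across all tested genes, 2964 (23.3%) passed an adjusted p of 0.05 in limma, 2295 (18.1%) of them higher and 669 (5.26%) lower with Lapatinib. All 3 Lapatinib samples lay above all 6 DMSO samples for 2116 genes (16.6%) and below them for 575 genes (4.52%). The median log2 fold change of all genes was 0.113, and the share of calls that were higher, 77.4%, was 52.8% (1558 genes, 12.3%, higher and 1393, 11%, lower) after the samples were scaled again by the median of ratios, which brought that median to 0.006. With the replicate number as a block, 4621 genes (36.3%) passed, 3134 (24.6%) higher and 1487 (11.7%) lower.

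**Figure D1:**
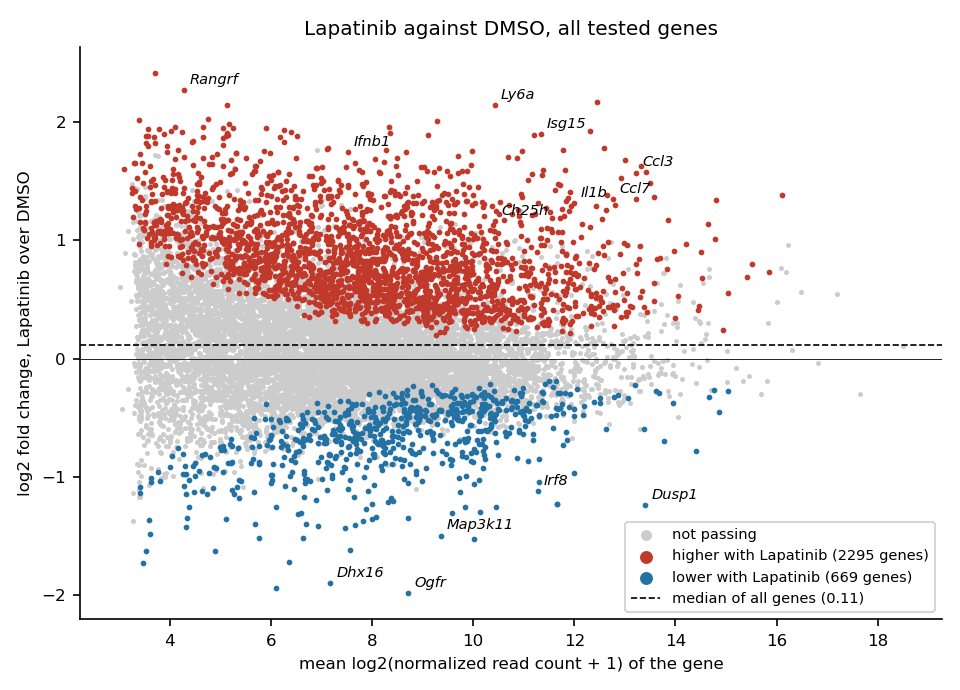
Log2 fold change of Lapatinib over DMSO for each of the 12714 tested genes (vertical axis) against the mean log2(normalized read count + 1) over all samples (horizontal axis). Red points are the 2295 genes called higher, blue points the 669 called lower and grey points the rest, and the dashed line is the median of all genes at 0.113, so that red points outnumber blue ones.

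The libraries differed in ways other than the inhibitor. The share of normalized reads on the mitochondrial genome was 3.71%, 2.64% and 1.92% in Lapatinib replicates 1, 2 and 3. In DMSO it was 1.34%, 0.871% and 0.916% in set 1 and 1.94%, 0.759% and 1.06% in set 2, so that only replicate 1 of DMSO set 2 reached the range of the Lapatinib samples. The means were 2.76% ± 0.9 (SD, n = 3) and 1.15% ± 0.438 (SD, n = 6), a difference of 1.61 percentage points with an exact permutation p of 0.0476 over 84 splits, two-sided. Within replicate numbers, the exact permutation test gave 0.037, the smallest value that its 27 splits allow. Lapatinib ranked 5 of 59 groups by its mean share, and the group means ranged from 0.834% to 3.66% with a median of 1.58%. The summed normalized values were 11545879 to 11863621 with Lapatinib and 9481416 to 11094387 with DMSO and did not overlap.

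When the mitochondrial share of each library entered the fit together with the replicate block, 420 genes (3.3%) passed, 171 (1.34%) higher and 249 (1.96%) lower. Of these, 168 and 243 were also called in the same direction without these terms. Below, "both terms" stands for this fit, under which 43 of the 126 named calls passed and 83 did not. The part of the mitochondrial share in the other calls was not tested further. The number of calls also rested on single libraries, since 575 genes passed without Lapatinib replicate 1, 1635 without replicate 2, 1201 without replicate 3, 1057 without DMSO set 2 replicate 2 and 4070 without DMSO set 2 replicate 1. Of the 126 named genes called as fitted, 44 passed without Lapatinib replicate 1, 85 without replicate 2, 89 without replicate 3 and 75 without DMSO set 2 replicate 2. Over all 28 gene lists, 311 of 963 genes passed (273 higher, 38 lower), beside 2964 (23.3%) of all 12714 genes. Without the same 4 libraries 68, 169, 155 and 136 of the 963 did, beside 575, 1635, 1201 and 1057 of all genes. The lists include cytosolic ribosomal protein genes and mitochondrially encoded genes, with 66 and 16 of the higher calls. In each of the 21 alternatives that tested them (some low genes are not tested at the filter of 50, and some genes have no GC value), 99 genes were called higher and 51 lower. Fewer cells of a type and less RNA per cell cannot be told apart in these bulk libraries.

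The cells carried the markers of macrophages. The summed normalized read counts of 8 macrophage markers lay between 99709 and 216444 in DMSO and between 198188 and 240418 with Lapatinib. Of the 8, 3 (Cd68, Fcgr1 and Cd14) passed as higher, against 18.1% of all genes. Lyz2, Adgre1, Itgam, Csf1r and Mertk did not pass, with log2 fold changes of 0.96, 0.54, 0.21, -0.01 and -0.31. The summed markers of T cells, B cells, erythroid cells, epithelial cells and mast cells or basophils stayed at or under 28 in every library, and those of dendritic cells (89 to 153 in DMSO, 111 to 189 with Lapatinib), fibroblasts (19 to 147 and 15 to 49) and endothelial cells (78 to 468 and 184 to 263) overlapped between the groups. Those of 7 neutrophil genes were 266 to 931 in DMSO and 1246 to 1449 with Lapatinib and did not overlap. Of single genes over the whole table, 16.6% had all 3 Lapatinib samples above all 6 DMSO samples. Of the 6 neutrophil genes tested, S100a8, S100a9, Camp and Ngp passed as higher, against 18.1% of all genes. Elane and Mpo, granule enzymes of immature neutrophils, did not pass. Ly6g, the surface marker of mature neutrophils, was listed at 0 or 1 in all 9 libraries. The part of these transcripts in the results was not tested.

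The intended targets were weakly transcribed. Egfr had normalized read counts of 7, 11 and 8 with Lapatinib, against a lowest of 4, a median of 6.5 and a highest of 8 in DMSO, and was under the filter. Erbb2 was listed at 0, 0 and 2 against 0 to 3 in DMSO, and Erbb4 at 0 in all 9 libraries. Erbb3, a receptor with a weak kinase that signals in pairs with other ERBB members, was the only one of the 4 receptors above the filter. Its counts of 23, 19 and 25 lay within the DMSO range of 19 to 37 (median 27.5), with a log2 fold change of -0.27 ± 0.26 (SE) and an adjusted p of 0.435. Of 11 ligand genes, only Hbegf passed the filter, at 17, 4 and 8 against 3 to 17 in DMSO (log2 fold change -0.10, adjusted p = 0.879).

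Among 17 adaptors and regulators of ERBB signaling, 16 were tested and 3 passed, 18.8% against 23.3% of all genes. Errfi1, which encodes the feedback inhibitor MIG6 of EGFR, was lower, with normalized read counts of 1104, 950 and 882 below all DMSO samples (lowest 1338, median 1621.5, highest 1699). Its log2 fold change of -0.69 ± 0.27 passed narrowly, with an adjusted p of 0.0494, and with both terms it was -0.73 (adjusted p = 0.0836). Ptpn11, the phosphatase SHP2 that relays receptor signals to RAS, was also lower without overlap, at 236, 264 and 260 against 288 to 505 (log2 fold change -0.50 ± 0.17, adjusted p = 0.0241, and -0.49 with an adjusted p of 0.0568 with both terms). Grb2, the adaptor that brings SOS1 to receptors, was higher, at 691, 651 and 525 against 234 to 572 in DMSO, with overlap of the groups, a log2 fold change of 0.86 ± 0.33 and an adjusted p of 0.0443 (0.43 and 0.145 with both terms). Shc1, Cblb, Rnf41 and Adam17 had log2 fold changes between -0.07 and -0.02 and did not pass. The median of the 16 genes was -0.06, and -0.17 after the median of ratios.

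Early genes downstream of ERK went both ways. Of 31 tested, 2 were higher and 3 lower (16.1% against 23.3% of all genes), with a median log2 fold change of 0.13 against 0.113 over all genes, and none passed with both terms. Dusp1, a phosphatase that inactivates MAP kinases, had counts of 3588, 9788 and 10058 with Lapatinib and a lowest of 7541, a median of 21023.5 and a highest of 27409 in DMSO. Replicate 1 was the lowest of all, and replicates 2 and 3 lay just above the DMSO samples numbered 3 (7541 and 9752) and below the other DMSO samples. Its log2 fold change was -1.24 ± 0.40 with an adjusted p of 0.0192, and 0.084 with the mitochondrial share and the block. Junb, an AP-1 subunit, was lower without overlap, at 9449, 10834 and 11130 against 13235 to 24113 (log2 fold change -0.70 ± 0.21, adjusted p = 0.013, and 0.0609 with both terms). Atf3 also fell (-0.38, adjusted p = 0.0276, and 0.159 with both terms), whereas Egr2 rose, from 104 to 233 in DMSO to 285 to 390 (1.03 ± 0.33, adjusted p = 0.0188, and 0.219 with both terms).

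Ifnb1, the interferon beta gene (chr4:88522025-88522794 in mm10, minus strand), had normalized read counts of 341, 348 and 427 with Lapatinib. In DMSO the lowest was 75, the median 92.5 and the highest 262. The groups did not overlap, and the highest DMSO sample, replicate 1 of set 2, stood apart from the other DMSO samples, which reached 129. The log2 fold change was 1.75 ± 0.40 (a fold of 3.36) with an adjusted p of 0.00529, and 0.000412 with the replicate block. The mitochondrial share in the fit brought it to a log2 fold change of 1.10 and an adjusted p of 0.0241. The 21 alternatives gave adjusted p-values from 0.000257 to 0.032. Lapatinib replicate 3 and DMSO set 2 replicate 1 had nearly the same mitochondrial share, 1.92% and 1.94%, and Ifnb1 counts of 427 and 262.

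**Figure D2:**
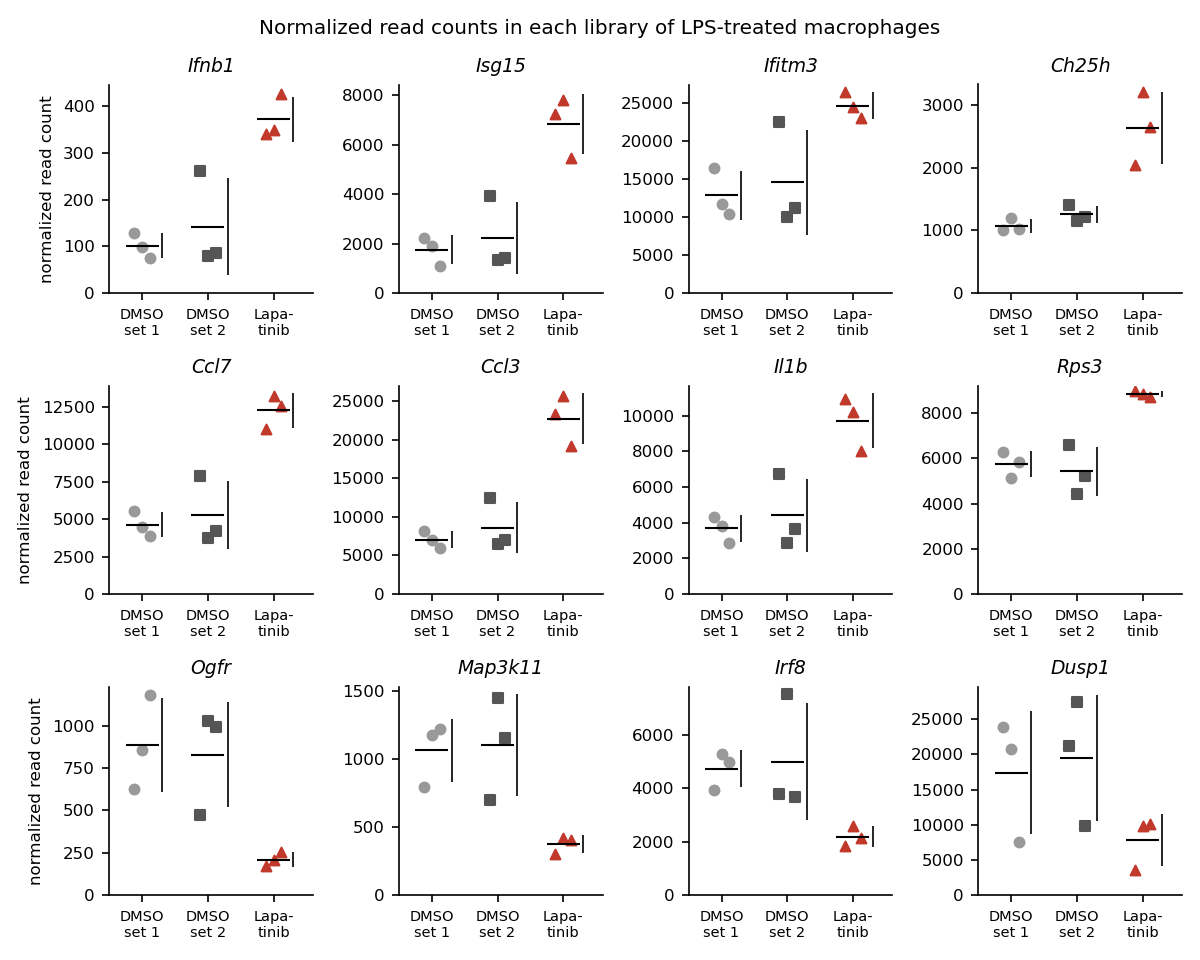
Normalized read counts (linear vertical axes from 0) of 12 genes in the 3 samples of DMSO set 1, the 3 of DMSO set 2 and the 3 Lapatinib samples, ordered by replicate number from left to right. Horizontal lines are means and vertical lines span 1 SD on each side, and Dusp1 is the gene in which Lapatinib samples overlap with DMSO samples, while the other 11 show no overlap.

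Genes of nucleic acid sensing and IFNB1 induction, Ifnb1 included, went both ways. Of 17 tested, 2 were higher and 3 lower (29.4% against 23.3% of all genes), with a median log2 fold change of 0.06 (-0.05 after the median of ratios). Tank, an adaptor of the kinases TBK1 and IKKε, was higher at 1935, 2361 and 1771 against 795 to 1836 in DMSO (log2 fold change 0.91 ± 0.28, adjusted p = 0.0159, and 0.0752 with both terms). Azi2, another adaptor of TBK1, was lower at 916, 1375 and 1419, all below the lowest DMSO value of 1595 (-0.70 ± 0.22, adjusted p = 0.0168, and 0.124 with both terms). Irf8, a transcription factor of the myeloid lineage, had 1831, 2604 and 2128 against a lowest of 3680, a median of 4478 and a highest of 7541. All 3 Lapatinib samples lay below the DMSO samples, with a log2 fold change of -1.12 ± 0.31 and an adjusted p of 0.00958 (0.0657 with both terms).

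Of 81 tested interferon-stimulated genes, 19 (23.5%) were higher and none lower, against 18.1% of all genes higher and 23.3% called in either direction. The median log2 fold change of 0.54 stood beside 0.113 over all genes. The log2 fold change was above 0 for 68 of the 81. With the replicate block 36 of the 81 passed, all higher, beside 24.6% of all genes higher. With the mitochondrial share as well only Ifitm3 did, beside 1.34% of all genes higher, at a list median of 0.24. The count depended on the libraries: without Lapatinib replicates 1, 2 and 3 it was 0, 3 and 5, without DMSO set 1 replicate 3 it was 7, and without DMSO set 2 replicates 1, 2 and 3 it was 35, 4 and 10. Of all 12714 genes, 489, 1254, 827, 1746, 2988, 832 and 1941 were then higher, in the same order.

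Isg15, a ubiquitin-like modifier, had counts of 7228, 7815 and 5450 with Lapatinib and a lowest of 1096, a median of 1671.5 and a highest of 3901 in DMSO. The groups did not overlap, and the log2 fold change was 1.90 ± 0.51 with an adjusted p of 0.0092 (0.00108 with the block, 0.0585 with the mitochondrial share as well, and 0.0505 without Lapatinib replicate 1). Ifitm3, which restricts the entry of enveloped viruses, had 26490, 24467 and 23036 against 10018 to 22467 (median 11423.5), a log2 fold change of 0.91 ± 0.28 and an adjusted p of 0.0141 (0.0462 with both terms). Bst2, or tetherin, which holds budding virions at the membrane, had 4505, 4162 and 4246 against 1602 to 3412 (1.00 ± 0.29, adjusted p = 0.0119, and 0.0779 with both terms). Rtp4 rose by a log2 fold change of 1.24 ± 0.38 (adjusted p = 0.0159, and 0.0818 with both terms) with overlap, since DMSO reached 6476 and the lowest Lapatinib sample was 6214. For all 4 genes the highest DMSO sample was the one with the highest mitochondrial share.

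Chemokine and chemokine receptor genes were the list with the highest median among the secreted factors. Of 20 tested, 13 (65%, against 18.1% of all genes) were higher and none lower, with a median log2 fold change of 0.91 (0.80 after the median of ratios). With both terms 1 passed, Ccl7, beside 1.34% of all genes higher, and the median was 0.37. The 13 became 3, 3 and 4 without Lapatinib replicates 1, 2 and 3, 7 without DMSO set 1 replicate 3 and 4 without DMSO set 2 replicate 2. Of all 12714 genes, 489, 1254, 827, 1746 and 832 were then higher, in the same order. Ccl7, a ligand of CCR2 that draws monocytes, had counts of 11011, 13243 and 12569 against a lowest of 3777, a median of 4351.5 and a highest of 7874. The groups were well apart, with a log2 fold change of 1.35 ± 0.28 and an adjusted p of 0.00267 (0.000261 with the block, 0.0144 with the mitochondrial share as well), and the call held in all 21 alternatives. Ccl3, which draws monocytes and other leukocytes, had 23398, 25668 and 19239 against 5987 to 12411 (median 6984.5), a log2 fold change of 1.57 ± 0.45 and an adjusted p of 0.0109 (0.109 with both terms). Ccl12 and Ccl2, both ligands of CCR2, rose without overlap by log2 fold changes of 1.62 ± 0.43 (adjusted p = 0.00835) and 0.43 ± 0.12 (adjusted p = 0.0104), with 0.0872 and 0.0688 with both terms.

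Of 17 tested cytokine genes, 6 were higher and 1 lower (41.2% against 23.3% of all genes), with a median log2 fold change of 0.76. None passed with the mitochondrial share and the block, where the median was 0.26. The 6 became 0, 0 and 3 without Lapatinib replicates 1, 2 and 3, and 3 without DMSO set 1 replicate 3. Without DMSO set 2 replicates 1, 2 and 3 they became 9, 1 and 3. Of all 12714 genes, 489, 1254, 827, 1746, 2988, 832 and 1941 were then higher, in the same order. Il1b, which encodes the pyrogenic interleukin-1 beta, had counts of 10957, 10205 and 8016 against a lowest of 2842, a median of 3731.5 and a highest of 6751. Its samples did not overlap (log2 fold change 1.32 ± 0.41, adjusted p = 0.0165, and 0.0946 with both terms). Il1a had 911, 945 and 785 against 237 to 627 (1.31 ± 0.41, adjusted p = 0.0159, and 0.135 with both terms), and Ebi3, a subunit of interleukin-27, 1381, 1689 and 1279 against 621 to 996 (0.97 ± 0.30, adjusted p = 0.0149, and 0.164 with both terms). Il10, the anti-inflammatory cytokine, had 2898, 2455 and 1797 against 639 to 2089, with overlap (1.21 ± 0.44, adjusted p = 0.035, and 0.125 with both terms).

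NF-κB subunits and feedback genes went both ways, with 6 higher and 6 lower of 31 tested (38.7% against 23.3% of all genes). Their median was 0.08 (-0.03, with 3 higher and 7 lower, after the median of ratios). Nfkb2, the precursor of the p52 subunit, was lower at 2216, 2814 and 2694 against 3201 to 5231 (log2 fold change -0.59 ± 0.15, adjusted p = 0.00744, and 0.0509 with both terms). Socs3, an inhibitor of cytokine receptors, was also lower without overlap (-0.45 ± 0.14, adjusted p = 0.0165, and 0.239 with both terms). Traf1 and the survival gene Bcl2a1d, which has near-identical copies that share reads, were higher without overlap (0.62 and 1.10, adjusted p of 0.0186 and 0.0193). None of the 31 genes passed with the mitochondrial share and the block.

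**Figure D3:**
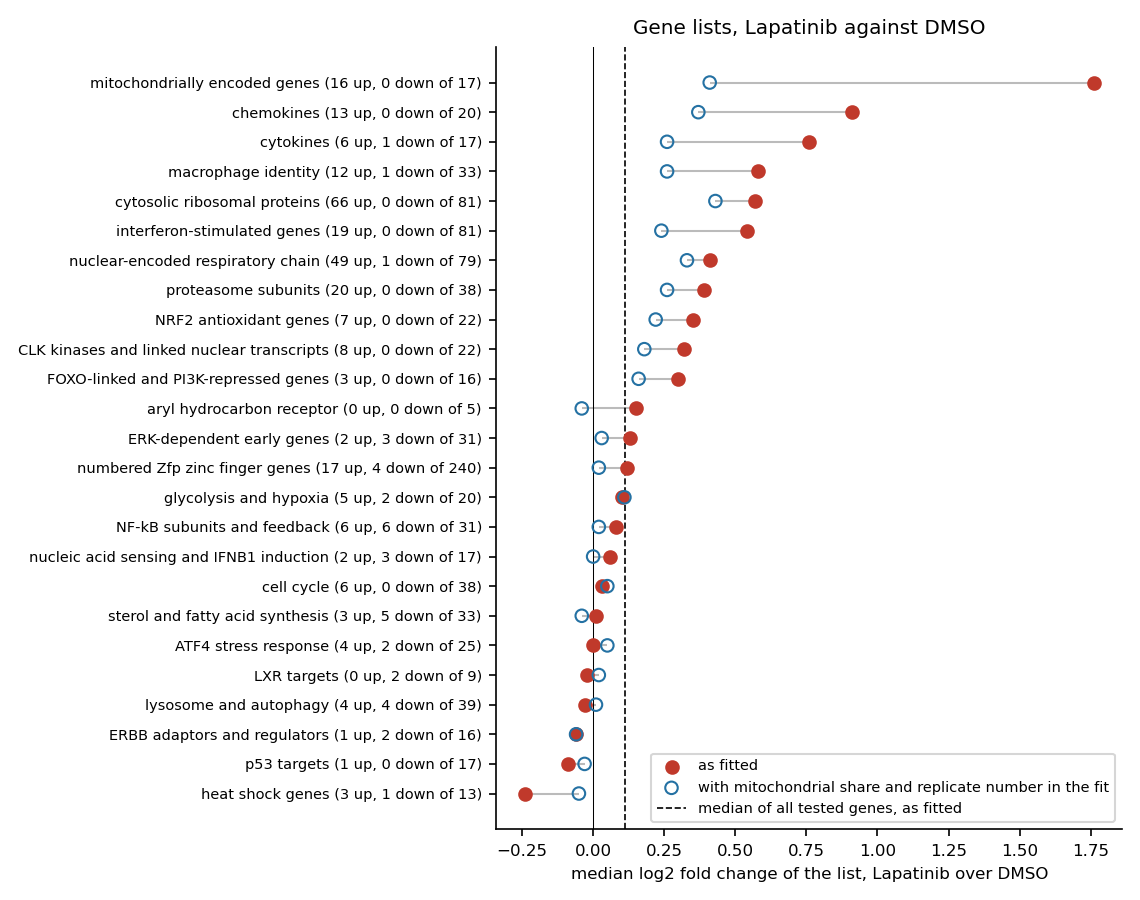
Median log2 fold change of Lapatinib over DMSO (horizontal axis) for 25 of the gene lists, each with at least 5 tested genes. Filled points are the medians as fitted, open circles those with the mitochondrial share and the replicate number in the fit, the dashed line is the median of all tested genes, and the counts of calls as fitted stand beside each name. Mitochondrially encoded genes, chemokines and cytokines have the highest medians and the widest distance between the points.

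Cytosolic ribosomal protein genes were the largest group that moved in 1 direction. Of 81 tested, 66 (81.5%, against 18.1% of all genes) were higher and none lower, with a median log2 fold change of 0.57. In 64 all 3 Lapatinib samples lay above all 6 DMSO samples, as they did in 16.6% of all genes. With the mitochondrial share and the block, 14 of the 81 were still called higher, beside 171 (1.34%) of all 12714 genes. The median was then 0.43. Without Lapatinib replicate 1 the count was lowest, at 21 of 81, beside 489 of all 12714 genes called higher. Rps3, a protein of the small subunit, had 8979, 8860 and 8694 against a lowest of 4430, a median of 5527.5 and a highest of 6603. The Lapatinib samples differed little among themselves, and the log2 fold change was 0.68 ± 0.15 with an adjusted p of 0.00365 (0.0209 with both terms). Rps6 had 821, 861 and 972 against 334 to 608 (0.76 ± 0.17, adjusted p = 0.00489, and 0.0212 with both terms), and Rpl5 and Rpl22 rose by 0.60 and 0.56 (adjusted p of 0.0525 and 0.0272 with both terms). Since reads of ribosomal protein genes can be shared with their many processed pseudogenes, the split between them is uncertain.

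Nuclear-encoded respiratory chain genes followed, with 49 higher and 1 lower of 79 tested (63.3% against 23.3% of all genes) and a median of 0.41. With the mitochondrial share and the block, 4 higher were left, beside 1.34% of all genes. The 49 became 15 without Lapatinib replicate 1, 29 without replicate 3 and 28 without DMSO set 2 replicate 2. Of all 12714 genes, 489, 827 and 832 were then higher, in the same order. Atp5mpl and Atp5g1, of the ATP synthase, had log2 fold changes of 1.14 ± 0.26 (adjusted p = 0.00519, and 0.0247 with both terms) and 1.09 ± 0.27 (adjusted p = 0.00717, and 0.0723 with both terms). Of 38 proteasome subunit genes, 20 were higher and none lower (52.6% against 23.3% of all genes, median 0.39). Without Lapatinib replicate 3, 13 were higher, and 1 passed with both terms. Psmb7, a catalytic subunit, had 1197, 1260 and 1404 against 393 to 896 (1.02 ± 0.25, adjusted p = 0.00677, and 0.0541 with both terms). The mitochondrially encoded genes had 16 of 17 tested higher and a median of 1.76, which fell to 0.41 with none called once the mitochondrial share, to which they contribute, was in the fit. The cytochrome b gene, listed as CYTB, had 14439, 12848 and 8552 against 1515 to 6806 in DMSO, and mt-Rnr1, the small mitochondrial ribosomal RNA, 25625, 12157 and 8853 against 1798 to 8111. Without Lapatinib replicate 1 or without DMSO set 2 replicate 2, 0 of the 17 passed, and 4 did without Lapatinib replicate 2. Of all 12714 genes, 489, 832 and 1254 were then higher, in the same order.

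**Figure D4:**
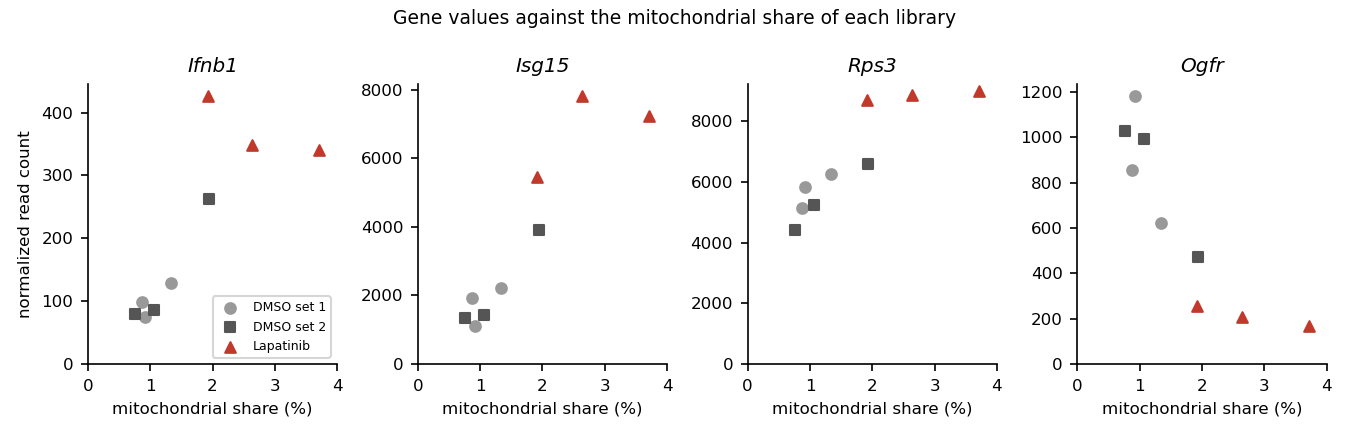
Normalized read counts of 4 genes (vertical axes from 0) against the percentage of normalized reads on the mitochondrial genome (horizontal axes) in the 9 libraries. The DMSO library at 1.94% is the highest DMSO sample for Ifnb1, Isg15 and Rps3 and the lowest for Ogfr, and at this share it lies below Lapatinib replicate 3 (1.92%) for the first 3 genes and above it for Ogfr.

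The calls differed by the length and kind of gene. The median exon length was 2807 bases for all tested genes, 1513 for those higher and 3023 for those lower with Lapatinib. When the genes were cut into 5 equal bins by exon length, 41.5% of the shortest bin were higher and 1.85% lower, and in bin 4 8.02% were higher and 7.16% lower. Pseudogenes were 11.4% of the genes tested, 23.9% of those higher (549 genes) and 2.99% of those lower (20 genes), and of the protein-coding genes 15.4% were higher and 6.02% lower. By GC content, 19.8% of the lowest bin and 9.84% of the highest bin were higher, and 3.88% and 8.59% were lower.

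**Figure D5:**
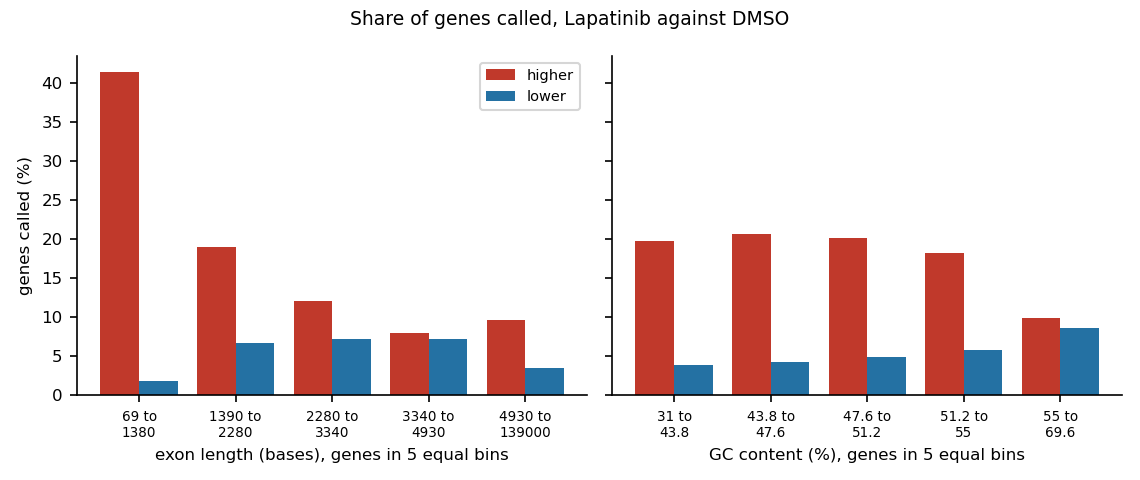
Percentage of genes called higher (red) or lower (blue) with Lapatinib (vertical axis from 0) in 5 equal bins of the tested genes by exon length in bases (left) and GC content in percent (right). The share called higher falls from 41.5% in the shortest bin to 8.02% in bin 4, and from 19.8% to 9.84% between the lowest and the highest bin of GC content.

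Macrophage genes were mostly on the higher side. Of 33 tested, 12 were higher and Irf8 alone lower (39.4% against 23.3% of all genes), with a median of 0.58 (0.47 after the median of ratios). With both terms 1 was higher, Tyrobp, and none lower, and the median was 0.26. The 12 became 0, 2 and 3 without Lapatinib replicates 1, 2 and 3, 6 without DMSO set 1 replicate 3 and 18 and 1 without DMSO set 2 replicates 1 and 2. Of all 12714 genes, 489, 1254, 827, 1746, 2988 and 832 were then higher, in the same order. Cd68, a lysosomal glycoprotein, had counts of 16198, 14408 and 14532 against a lowest of 3124, a median of 4741.5 and a highest of 11311 (log2 fold change 1.53 ± 0.45, adjusted p = 0.013, and 0.0821 with both terms). Tyrobp, the adaptor DAP12, had 17099, 14632 and 14072 against 5703 to 12931 (0.95 ± 0.29, adjusted p = 0.0141, and 0.0479 with both terms). C1qc, a chain of complement C1q, had 5421, 4079 and 3886 against 842 to 3478 (1.56 ± 0.52, adjusted p = 0.0241, and 0.116 with both terms).

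Genes of sterol and fatty acid synthesis had 3 higher and 5 lower of 33 tested (24.2% against 23.3% of all genes), at a median of 0.01 (-0.10, with 1 higher and 8 lower, after the median of ratios). Insig1, which retains SREBP in the endoplasmic reticulum, had 992, 1197 and 1200 against 1411 to 1952 (log2 fold change -0.58 ± 0.18, adjusted p = 0.0165, and 0.0545 with both terms). Cyp51, an enzyme of cholesterol synthesis, was lower without overlap (-0.45, adjusted p = 0.00838, and 0.0454 with both terms), and Fads2, a fatty acid desaturase, was lower at 93, 154 and 193 against 175 to 331 (-0.75 ± 0.22, adjusted p = 0.0135, and 0.00728 with both terms). With the mitochondrial share and the block, 3 genes of the list were lower and none higher. Of 9 LXR targets, Lpcat3 and Mylip were lower (-0.31 and -0.65, adjusted p of 0.0253 and 0.0444, and 0.0248 and 0.0723 with both terms), 22.2% against 23.3% of all genes.

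The stress lists are given with the share of their genes called in either direction, which was 23.3% over all genes. Of 22 NRF2 antioxidant genes, 7 were higher and none lower (31.8%, median 0.35, and 2 higher and 3 lower after the median of ratios). Prdx1, a peroxiredoxin, had 18989, 18671 and 17720 against 7448 to 15767 (0.84 ± 0.25, adjusted p = 0.0122, and 0.089 with both terms). Of 25 genes of the ATF4 stress response, 4 were higher and 2 lower (24%), near the share of all genes. Ddit3, which encodes CHOP, rose by 1.67 ± 0.46 (adjusted p = 0.0101, and 0.0469 with both terms) with overlap, at 153, 116 and 74 against 22 to 76. Xbp1, a transcription factor of the unfolded protein response, was lower at 734, 839 and 1079 against a lowest of 1134, a median of 1688 and a highest of 2226 (-0.93 ± 0.22, adjusted p = 0.00633, and 0.00347 with both terms). Of 13 heat shock genes, 3 were higher and 1 lower (30.8%), with a median of -0.24 (-0.05 with both terms). Shares called were 20.5% for lysosome and autophagy genes (4 higher and 4 lower of 39) and 35% for glycolysis and hypoxia (5 and 2 of 20). They were 15.8% for cell cycle (6 and 0 of 38) and 5.88% for p53 targets (1 and 0 of 17). These lists had medians between -0.09 and 0.10, close to or below that of all genes. Of 5 genes of the aryl hydrocarbon receptor pathway, none passed.

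The transcription factor gene Hif1a, a regulator of the hypoxic response, was lower at 814, 879 and 1048 against 1196 to 2501 (-0.78 ± 0.21, adjusted p = 0.00895, and 0.0494 with both terms). Tfe3, a lysosomal regulator, was also lower (-0.36 ± 0.09, adjusted p = 0.00734, and 0.0265 with both terms). Genes for CLK kinases and linked nuclear transcripts had 8 higher and none lower of 22 (36.4% against 23.3% of all genes). Their median was 0.32, with 5 higher and 3 lower after the median of ratios. Clk1, a kinase of splicing factors, had 336, 292 and 342 against 67 to 259 (1.25 ± 0.35, adjusted p = 0.0104, and 0.138 with both terms). FOXO-linked genes (3 higher, 0 lower of 16) and numbered zinc finger genes (17 and 4 of 240) had medians of 0.30 and 0.12. Their shares called, 18.8% and 8.75%, were below that of all genes.

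The genes that fell furthest mostly kept their call with the mitochondrial share in the fit. Ogfr, the opioid growth factor receptor (chr2:180589407-180595837 in mm10, plus strand), had counts of 169, 206 and 254 with Lapatinib against a lowest of 474, a median of 923 and a highest of 1182. The log2 fold change of -1.98 ± 0.38 had an adjusted p of 0.000983 (0.000432 with the mitochondrial share and the block, where the log2 fold change was -1.89). Map3k11, the kinase MLK3 upstream of JNK, had 300, 422 and 403 against a lowest of 701, a median of 1162.5 and a highest of 1444 (-1.50 ± 0.25, adjusted p = 0.000101). Dhx16, a splicing helicase, had 57, 51 and 100 against 156 to 438 (-1.90 ± 0.39, adjusted p = 0.00234), and Zfp282, a zinc finger gene, 29, 39 and 53 against 93 to 203 (-1.72 ± 0.35, adjusted p = 0.00213). In all 4 the lowest DMSO sample was replicate 1 of set 2, and the call held in all 21 alternatives.

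Other genes among the 15 furthest falls included Tbcc, a tubulin folding cofactor (45, 39 and 68 against 92 to 179, log2 fold change -1.52, adjusted p = 0.00625, and 0.004 with both terms), and Retreg3, a receptor of reticulum autophagy (51, 67 and 65 against 107 to 244, -1.40, adjusted p = 0.00614, and 0.00128 with both terms). Iffo1 (-1.52), Ntng2 (-1.73), Tjp3 (-1.63), Ccdc142 (-1.48), Def6 (-1.43), Fut11 (-1.41), Rasal3 (-1.41) and Gpt2 (-1.40) were also among them. Of the genes named here, Ccdc142 and Fut11 did not pass with the mitochondrial share and the block.

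The 15 furthest rises were taken in the same way, from called genes whose 3 Lapatinib samples lay above all 6 DMSO samples. Of them, Rangrf led with counts of 44, 41 and 46 against 3 to 20 (log2 fold change 2.27 ± 0.46, adjusted p = 0.00234, and 0.0209 with both terms). Ly6a, the surface antigen Sca-1 and an interferon-responsive gene, had 5576, 3179 and 2541 against a lowest of 485, a median of 740 and a highest of 1792. Replicate 1 was the highest, and Ly6a had a log2 fold change of 2.14 ± 0.51 and an adjusted p of 0.00614 (0.00216 with both terms, and 0.051 without Lapatinib replicate 1). Folr1, a folate receptor, had 38, 31 and 35 against 5 to 13 (1.94 ± 0.43, adjusted p = 0.00376, and 0.0265 with both terms), and Tspan33, a tetraspanin, 22, 14 and 33 against 3 to 8 (1.94 ± 0.42, adjusted p = 0.00294, and 0.0265 with both terms). The group also held Ly6c1 and Clec4b1, the non-coding genes Gm19765 and Gm33533, the pseudogenes Gm5620, Trp53-ps and Rpl17-ps3, and the mitochondrial transcripts CYTB, ND2, ND6 and mt-Rnr1, with log2 fold changes from 1.93 to 2.17. Of these, only Gm19765, Gm5620 and Rpl17-ps3 passed with both terms.

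Whether Lapatinib differed from CKIs in general was asked by a contrast with the mean of the 57 other CKIs. By limma none of the 12714 genes (0%) passed, 2765 (21.7%) had an unadjusted p under 0.05, and the median log2 difference was 0.047. With the replicate block 898 genes (7.06%) passed, 562 (4.42%) higher and 336 (2.64%) lower, and with the mitochondrial share as well 10 (0.0787%), 1 (0.00787%) higher and 9 (0.0708%) lower. The interferon-stimulated genes had a median log2 difference of 0.58, above 0 in 78 of 81, and the chemokines 0.68. None of either list passed as fitted, and with the replicate block 29 interferon-stimulated genes and 9 chemokine genes were higher.

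The 5 genes with the smallest unadjusted p on each side are given although they did not pass as fitted. With the replicate block all 10 passed, with adjusted p-values from 0.00462 to 0.0241. Ch25h, which makes an antiviral oxysterol from cholesterol, had counts of 2047, 3205 and 2645 with Lapatinib. The means of the other CKIs ran from 554 to 2482 with a median of 1419, all below the Lapatinib mean of 2632, and the log2 difference was 0.91 ± 0.20 (adjusted p = 0.112, 0.00826 with the block and 0.0796 with both terms). Against DMSO, with a lowest of 998, a median of 1177.5 and a highest of 1408, Ch25h passed in all 21 alternatives (log2 fold change 1.16 ± 0.24, adjusted p = 0.00246, and 0.0173 with both terms). Il1b (1.26), Folr1 (1.38), Nox1 (0.89) and Gm2676 (0.65) followed on the higher side, and in each the Lapatinib mean was above those of all 57. On the lower side were Tk2 (-0.67), Fam160a2 (-0.77), Afap1 (-0.72), Phf1 (-0.82) and Pxn (-0.44), with 54 to 56 of the other CKIs above Lapatinib. With both terms Il1b, Tk2 and Pxn passed (adjusted p of 0.0465, 0.044 and 0.0479).

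The Ifnb1 mean with Lapatinib was above that of 53 other CKIs and below that of 4, and those means ran from 10 to 1553. Isg15 and Ccl7 were highest with Lapatinib of all 58 CKIs, at means of 6831 and 12274, against 1249 to 5903 and 2790 to 12000 for the others. Ogfr, by contrast, had 16 other CKIs below its Lapatinib mean of 210. These are orders of means over 3 samples, and none of the contrasts of these genes with the other CKIs passed as fitted (adjusted p = 0.157 for each). With the replicate block all 4 passed (adjusted p of 0.0401 for Ifnb1, 0.0244 for Isg15, 0.0335 for Ccl7 and 0.0345 for Ogfr), and with both terms none did.

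Other CKIs of the series also have ERBB receptors among their targets, at concentrations that differ from that of Lapatinib, and all of them share the DMSO samples, so their values are set side by side without a comparison. The log2 fold change of Ifnb1 over DMSO was 1.75 with Lapatinib, 1.08 with AC480, 0.03 with Afatinib, 3.23 with Mubritinib, -0.06 with Neratinib and 0.68 with Poziotinib, and it passed with Lapatinib and Mubritinib. For Isg15 the values were 1.90, 0.17, 0.31, 0.80, -0.01 and -0.13 in the same order, and Lapatinib alone passed. Rtp4 also passed with Lapatinib alone, whereas Bst2 and Ifitm3 passed with Afatinib too (0.91 and 0.71). Ccl7 passed with Lapatinib, Afatinib (0.96) and Mubritinib (1.17). For Errfi1 they were -0.69, -0.02, -2.20, -0.68, 0.17 and 0.26, and for Dusp1 -1.24, -0.21, -3.62, 0.31, 0.31 and 0.03, with Lapatinib and Afatinib called in both. For Ogfr the values were -1.98 with Lapatinib and -1.28 with Afatinib, both called, and -0.29, -0.41, -0.42 and -0.53 with AC480, Mubritinib, Neratinib and Poziotinib, which did not pass.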

How the data were processed

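RNA-seq (SMART-seq2 from 5 ng of RNA) of LPS-treated BMDMs was analysed for the 3 Lapatinib and 6 DMSO samples, within a fit to all 180 samples. The authors aligned reads to mm10 with TopHat2 2.1.1, removed those in blacklisted regions with bedtools 2.29.2, counted the rest on curated RefSeq exons with R/Bioconductor packages and scaled the samples on invariant genes, and the deposited values are these scaled counts rounded to whole numbers, treated here as a score and called normalized read counts. The authors used DESeq2 with R 3.6.2 for their own tests. As the values are scaled, no count test was run, strand was not stated to be used, and the totals of normalized values (9481416 to 11863621 in the 9 samples) stand for depth.

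Groups and replicate numbers came from the labels, and the 2 DMSO sets were joined because the labels do not tie a set to a CKI. Genes with a mean of at least 10 were tested on log2(value + 1) with limma 3.58.1 in R 4.3.3 (moderated test, variance trend, 59 groups), with Benjamini-Hochberg adjustment over 12714 genes and calls at 0.05. Fold changes are on this scale, which understates low genes. SE is that of limma. Single values were tested by exact permutation in SciPy 1.17.1. Figures were drawn with matplotlib 3.10.9. The fit was run on simulated data with noise drawn independently for each gene and library, which cannot show how shifts shared across genes act.

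Correlations of deviations from the group means across genes were 0.111 to 0.553 in 9 same-numbered pairs, against -0.392 to 0.132 in 18 other pairs. The highest values were between the 2 DMSO sets, and same-numbered Lapatinib and DMSO samples gave 0.111 to 0.331. DMSO set 1 replicate 1 gave 0.111 with Lapatinib replicate 1 and 0.114 with replicate 2. Deviations within a group sum to 0, which pushes the other pairs down, so the support for pairing Lapatinib is weak. Each replicate is an independent biological one by the methods, and the block takes the numbers to pair the samples. Alternatives were other pseudocounts (0.5 and 10), filters (none and 50), scaling by the median of ratios, no trend, only the compared groups, the replicate block, the mitochondrial share with the block, each DMSO set alone and each sample left out. A GC correction over 20 bins with the block was added after seeing the data. Named genes were all measured ERBB list members and Ifnb1, up to 4 genes of smallest p in each other list, the 15 furthest rises and falls among called genes without overlap, and up to 6 genes in each direction against the other CKIs or, where fewer than 5 passed, the 5 of smallest unadjusted p. The members, gene lists and tests were chosen with earlier results of these data known. Promoters came from RefSeq (GRCm38.p6). A few items are not reported here.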

Additional observations from a re-analysis of the deposited data

Results flagged for a closer look

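In 21 of 152 groups of DMSO values checked, 1 of the 6 DMSO samples stood apart from the others by Dixon's criterion, which sets the gap to the nearest sample against the whole range. For a single group chance alone gives about 1 in 20. The 152 groups are the tested named genes, many chosen with these DMSO values and all measured in the same 6 libraries. The count of 21 can therefore not be set against that rate. In 10 of the 21 the sample was replicate 1 of DMSO set 2, the DMSO library with the highest mitochondrial share. Its normalized read counts were 262 for Ifnb1, 12411 for Ccl3, 76 for Ddit3, 68 for Foxo3, 3140 for Srsf5, 3478 for C1qc, 8111 for mt-Rnr1, 1792 for Ly6a and 40 for Clec4b1, the highest in DMSO, and 999 for Cyp51, the lowest. Replicate 2 of set 2 stood apart as the highest DMSO sample for Cbl (496), Ubash3b (226), Azi2 (3399), Mcoln1 (445), Hif1a (2501), Gpt2 (138) and Pxn (1488), and as the lowest for Pgk1 (1836), Rps6 (334) and Zfp954 (31). Replicate 3 of set 1 was the lowest for Adam17 (2858).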

How the results depend on the processing

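The 126 called of 152 tested named genes kept their sign under every alternative. Uncalled genes and list medians did not all do so. Ahr, Cblb and Rnf41, for example, changed sign with the mitochondrial share and the block (to -0.04, 0.07 and 0.10). After the median of ratios, the medians of the nucleic acid sensing, NF-κB, sterol, glycolysis and cell cycle lists did so (to -0.05, -0.03, -0.10, -0.01 and -0.08). Some other list medians near 0 changed sign with the mitochondrial share and the block, as did the aryl hydrocarbon receptor median (to -0.04). The share of calls that were higher went from 77.4% to 40.7% with the mitochondrial share and the block. With the replicate block, which pairs samples by number, 4621 genes differed from DMSO (1487 lower) and 898 from the other CKIs (562 and 336), no call of the 126 was lost, and the mitochondrial share had an exact permutation p of 0.037. With the mitochondrial share as well, these were 420 (171 higher, 249 lower) and 10 (1 and 9), with 35 list genes in place of 311 of 963, and 83 of the 126 calls were lost. With the GC correction and the block, 4577 genes differed from DMSO (2214 lower) and 1063 from the other CKIs (660 and 403). Without a filter, 408 were lower than DMSO and 413 differed from the other CKIs (389 and 24), and after the median of ratios 1393 were lower. With only the compared groups in the fit, 1729 passed (1495 and 234). DMSO set 1 alone gave 1072 (875 and 197) with 132 list genes, and set 2 alone 1275 (941 and 334) with 135. Leaving out 1 sample at a time gave 575 to 4070 genes (489 to 2988 higher, 86 to 1082 lower), 68 to 386 list genes, 0 to 1 gene against the other CKIs (0 to 0 higher, 0 to 1 lower) and a difference in mitochondrial share of 1.13 to 2.03 points. That difference was 1.71 with DMSO set 1 alone (exact permutation p = 0.1, the smallest that 3 against 3 allows) and 1.5 with set 2 alone (0.2). Apart from fewer samples or genes entering, the cause of these shifts was not tested. Low counts limit precision, and differences in genes near the filter were detectable only where large.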

Other observations

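Genes of class II antigen presentation belonged to none of the lists and were looked at after their values were seen, so they are given without weight on their p-values. The chains H2-Aa, H2-Ab1 and H2-Eb1, which bind peptides for CD4 T cells, were higher with Lapatinib. H2-Aa had normalized read counts of 1697, 1502 and 1812 against 389 to 1209 in DMSO (log2 fold change 1.33 ± 0.31), H2-Ab1 2051, 2017 and 2384 against 700 to 1530 (1.08 ± 0.27) and H2-Eb1 1347, 1390 and 1640 against 395 to 846 (1.41 ± 0.32). None of these overlapped. The peptide-loading genes H2-DMb1 and H2-DMb2 rose by 1.21 and 1.39 without overlap, and H2-DMa by 1.08 with overlap, at 418, 334 and 429 against 113 to 377. Cd74, the invariant chain, had 7499, 5107 and 6578 against 2284 to 5746 (0.81 ± 0.25), with overlap. H2-Oa (16, 12 and 15 against 2 to 11, 1.03 ± 0.44) and H2-Ob (15, 32 and 24 against 9 to 16, 0.86 ± 0.35) did not pass. Their limma adjusted p-values were 0.0713 and 0.0578. Ciita, the coactivator that switches on class II genes, did not pass, at 85, 57 and 78 against 47 to 84 (0.24 ± 0.21, limma adjusted p = 0.397). With the mitochondrial share and the replicate block, the limma adjusted p-values ran from 0.0285 for H2-Aa to 0.583 for Ciita. Because the genes were picked on their values, these p-values are no test of them. Against the mean of the other CKIs none of the class II genes passed, with log2 differences of 0.83, 0.65 and 0.84 for H2-Aa, H2-Ab1 and H2-Eb1.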
